A study of Mus musculus with 16 samples.

Results

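The genes described here lost signal within 4 h of Notch1 activation in mouse mesodermal cells. They were picked from the measured values themselves: a probe set, the group of probes by which an Affymetrix array reads 1 transcript, was taken where the mean signal of the 2 arrays of uninduced NERT mesodermal cells was at least 2-fold that of the 2 arrays with 4-hydroxytamoxifen (OHT), where the means differed by more than 50 signal units, and where both arrays with OHT lay below both arrays without it. Of 45037 probe sets 107 met these conditions, which is 0.238%. Removing 18 whose symbols begin with Dusp, Spry, Sema, Eph, Fgf, Wnt or Adamts or are Id2, Dkk1, Sp5, Cyp26a1, Adm, Ndrg1, Ascl2 or Pou3f1 left 89 members. Of these, 82 name 1 gene each and stand for 72 of the 18193 genes on the array, 2 name a pair of related genes, and 5 are unnamed here. Because the fall in these 4 arrays chose the members, it is given as a description without a test.

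All cells came from the EB5 line of mouse embryonic stem cells (ESC). NERT cells carry the active intracellular part of Notch1 in a form that OHT switches on, and control cells carry the empty pCAG vector. The number of clones behind each line was not given in the sources used here. NERT ESC were kept for 4 h in an ectodermal (ESCe) or a mesodermal (ESCm) medium, each without and with 1 µM OHT (1 array per condition), and control ESCm and control mesodermal cells were likewise read without and with OHT (1 array each). NERT mesodermal cells, grown for 4 d on collagen IV with serum, were read without and with OHT, and in each case without and with 50 µg/ml of cycloheximide (CHX) for the same 4 h (2 arrays per condition). Nothing says whether replicate arrays came from separate cultures, so the error that the p-values take from them may be technical. The ESC and control conditions have no replicate array. Their p-values rest on the spread of NERT mesoderm replicates and on how the OHT response differed between media or control populations.

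Notch receptors sit in the cell membrane and are activated by ligands on neighbouring cells. Their intracellular part acts on genes through the DNA-binding protein RBP-J. Among the first genes switched on are the Hes and Hey genes, whose products repress transcription, so that genes that fall after Notch activation are commonly looked at as candidates for indirect control. CHX stops the synthesis of new protein, and the arrays with CHX ask which responses to OHT are still seen when no such product can be made. In the early mesoderm, Notch signaling takes part in the segmentation of the paraxial mesoderm and in choices between blood, vessel and muscle fates.

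Hes5, a direct Notch target, had a mean of 24.2 in uninduced NERT mesodermal cells and 1478 with OHT, while control mesodermal cells had 21.0 and 20.1. The 10 mesoderm and primitive streak markers summed to 4439 and 5327 in the uninduced NERT arrays and to 4737 and 4792 with OHT, and to between 1601 and 1642 in control mesodermal cells. Single markers of this list went both ways in NERT cells. Means of Aplnr (1052 without OHT and 1419 with it), Mesp1 (256 and 305), Tbx6 and Mixl1 were higher with OHT. Those of Evx1 (530 and 337), Eomes (651 and 544), Fgf8 (736 and 634), Pdgfra (123 and 46.6), Kdr and Lhx1 were lower. The 8 pluripotency markers were still present, with sums of 8266 to 8837 in NERT mesodermal cells without CHX against 14182 to 14350 in control mesodermal cells, so the control cells stood closer to ESC. The 7 endoderm markers summed to 291 to 342 without OHT and to 149 to 221 with it, and with OHT each of the 7 had a mean under 50. The 6 neuroectoderm markers summed to 346 to 447 and to 767 to 983, and the 6 blood and endothelium markers to 393 to 403 and to 306 to 335. The neuroectoderm shift was mostly Nes, with means of 220 and 722. Sox1 (17.7 and 3.35), Pax6 (27.1 and 26.5) and Zic1 (17.1 and 12.9) were under 50 in both groups, and Tubb3 went from 52.9 to 47.3. The blood and endothelium shift was mostly Lmo2, with means of 221 and 129. Tal1, Gata1, Pecam1 and Cdh5 were slightly higher with OHT, but Pecam1 and Cdh5 were under 50 in both groups. The part of these marker shifts in the falls was not tested. In such bulk RNA, fewer cells of a type and less RNA per cell cannot be told apart.

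Signals in the uninduced NERT arrays ranged, as group means, from 84.6 to 2516 with a median of 213, and those with OHT from 16.4 to 937 with a median of 93.9. The fold of the fall ran from 2.02 to 6.31 with a median of 2.41. In 28 of the 89 members both arrays with OHT were at or under 50% of both arrays without it. Just inside the 2-fold threshold lay Slain1 and 1424826_s_at of Mtss1 and Lpar1, each at 2.02. Just outside it lay Usp28 (1.993), Marveld1 (1.995) and Rhpn2 (1.997). Just inside the difference of 50 lay Mettl7a1 (50.5), Il17d (51.6) and Pnma2 (53.9), and just outside it Sox17 (49.955), Gad1 (48.9) and Ltbp3 (47.6). Membership at these edges turns on differences far smaller than the spread between replicate arrays.

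**Figure D1:**
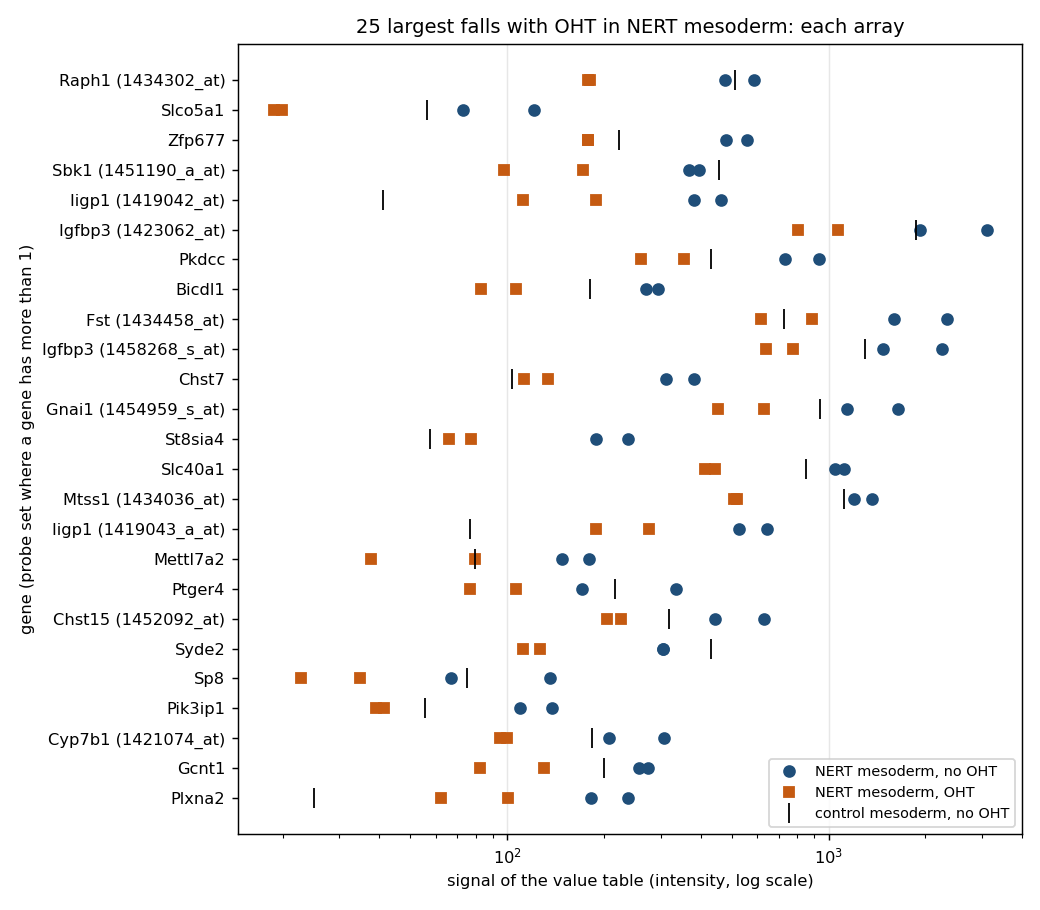
Signal of each array, on a log axis, for the 25 largest falls among members that name 1 gene, with circles for the 2 arrays of NERT mesodermal cells without OHT, squares for the 2 with OHT and a bar for the array of control mesodermal cells without OHT. Every square lies left of both circles of its line, as the choice of members requires, and the bars of Iigp1, Plxna2, Chst7 and St8sia4 lie left of both squares.

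Secreted proteins included Igfbp3 and Fst, the genes with the largest differences in signal. Igfbp3, a carrier of insulin-like growth factors in the extracellular space, read 3106 and 1927 in the uninduced arrays and 1072 and 803 with OHT at probe set 1423062_at, a 2.68-fold fall. Its other member probe set, 1458268_s_at, went from 2249 and 1477 to 775 and 637. Fst encodes follistatin, which binds activin and keeps it from its receptors, and it read 2337 and 1592 without OHT and 885 and 615 with it at 1434458_at, a 2.62-fold fall. In both genes replicate 1 of the uninduced cells was well above replicate 2. The second Fst probe set, 1421365_at, was closer to overlap, with 1137 and 485 without OHT against 437 and 264 with it. Pkdcc, a secreted protein kinase of the matrix, fell from 936 and 733 to 261 and 355. Stc2, a secreted glycoprotein of the stanniocalcin family, read 272 and 150.5 without OHT and 97.4 and 64.9 with it.

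Receptors and the proteins that carry their signal formed the next set. Ptger4, a receptor for prostaglandin E2, read 336 and 171 without OHT and 107 and 76.4 with it. Cysltr1, a receptor for cysteinyl leukotrienes, went from 176 and 118 to 62.7 and 50.4. Lpar1 and Lpar4, receptors for lysophosphatidic acid, fell 2.02-fold and 2.09-fold at their member probe sets. Of the 17 measured genes of a list of receptors for lipids and amines these 4 were members, and all signal through G proteins. Over the whole array 72 of 18193 genes were members. This list and the other gene lists were chosen with earlier results of these data known, so counts of members in them are a description. Gnai1, an inhibitory G protein alpha subunit, fell from 1642 and 1141 to 629 and 452 at 1454959_s_at and from 558 and 376 to 204 and 197 at 1434440_at. Of the 11 measured alpha subunits it was the single member. Pdgfra, the alpha receptor for platelet-derived growth factor and itself one of the mesoderm markers, had low and uneven signals of 90.5 and 155 without OHT and 26.4 and 66.8 with it.

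Further surface proteins are known from axon guidance and adhesion. Plxna2, a receptor for semaphorins, read 182 and 237 without OHT, 62.3 and 101 with it, and 35.2 in control mesodermal cells with OHT. Lrp8, a receptor for reelin and apolipoprotein E, went from 279 and 234 to 104 and 106. Pcdh18, a delta protocadherin that mediates cell adhesion, read 516 and 522 without OHT and 226 and 254 with it. Rgmb, a BMP coreceptor, fell 2.20-fold at its member probe set, and Flrt3, a ligand of latrophilins and Unc5 receptors, fell 2.07-fold. The nuclear receptors Pgr, for progesterone, and Thra, for thyroid hormone, fell 2.37-fold and 2.74-fold at their member probe sets.

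Enzymes that build sugar chains and hydroxylate sterols were also among the members. St8sia4, which adds polysialic acid to adhesion molecules, read 238 and 189 without OHT and 65.7 and 77.3 with it. Chst7 and Chst15, sulfotransferases of chondroitin sulfate, went from 381 and 313 to 113 and 134 and, at 1452092_at, from 628 and 442 to 205 and 225. Gcnt1, which makes the core 2 branch of O-linked sugars, read 275 and 257 and then 82.3 and 129.7. These 4 are among the 15 measured genes of the list of glycan-modifying enzymes. Cyp7b1, an oxysterol hydroxylase, fell 2.64-fold and 2.68-fold at its member probe sets. Slc40a1, the iron exporter ferroportin, had narrow groups of 1049.7 and 1119 without OHT and 411 and 444 with it. Slco5a1, of the organic anion transporter family, had the largest fold of the named members, 5.03, but at low signals: 121 and 73.0 without OHT and 19.9 and 18.8 with it.

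Proteins of the cell cortex and cytoskeleton held the largest fall on the log2 scale among named members. Raph1, or lamellipodin, which recruits Ena/VASP proteins to the leading edge, read 585 and 478 without OHT and 178 and 181 with it at 1434302_at, and 163 and 162 against 65.6 and 65.0 at 1434303_at. Mtss1, a membrane-bending protein that binds actin, went from 1363 and 1198 to 508 and 517 at 1434036_at. Syde2 read 306 and 305 without OHT and 112 and 127 with it. In these 3 genes the arrays of a group lay close together. Bicdl1, an adaptor for dynein-driven transport, fell 2.99-fold, Kif21a, a kinesin, 2.25-fold and 2.11-fold at its member probe sets, and Fgd4, an activator of Cdc42, 2.07-fold.

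Promoters of members were read from RefSeq (GRCm38.p6) as windows from 250 bases before to 50 after a transcript start; 56 of the 72 genes matched, with 79 windows. 5 short motifs were searched on both strands: the RBP-J core GTGGGAA, the Hes class C site CACGCG, the class B E-box CACGTG, the N-box CACNAG and the TCF/LEF core CTTTGAT. The class C letters stood in 20 of the 79 member windows (25.3%), in 9.27% of all 32851 windows and in 18% of the 10081 windows of genes at least as high in uninduced NERT mesodermal cells as the lowest member. The RBP-J core was found in 4 member windows (5.06%, against 6.38% of all) and the E-box in 3 (3.8%, against 7.15%). The N-box was found in 30 (38%, against 42.5%) and the TCF/LEF core in none (3.73% of all). In the windows of genes expressed at that level the shares were 5.85% for the RBP-J core, 10.3% for the E-box, 39.4% for the N-box and 2.39% for the TCF/LEF core. The class C letters contain the pair CG more than once, and windows with them held a median of 31 CG pairs against 14 in the other member windows, 20 in all member windows, 21 in the windows of the genes expressed at that level and 7 in all windows, and the part of CG content in the share was not tested. The windows of 4 strong members with a class C match and of Igfbp3 and Ssbp2, which hold no match to any of the 5, are shown 5′ to 3′ along the gene, with every match in capitals:
Raph1, chr1:60566716-60567015, minus strand: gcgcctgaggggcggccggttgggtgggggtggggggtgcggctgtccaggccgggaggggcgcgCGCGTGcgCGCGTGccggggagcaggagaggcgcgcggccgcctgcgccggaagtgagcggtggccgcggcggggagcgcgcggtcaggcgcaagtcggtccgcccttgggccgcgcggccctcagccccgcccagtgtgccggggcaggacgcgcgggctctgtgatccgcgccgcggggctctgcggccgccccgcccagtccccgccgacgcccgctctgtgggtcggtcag
St8sia4, chr1:95667545-95667844, minus strand: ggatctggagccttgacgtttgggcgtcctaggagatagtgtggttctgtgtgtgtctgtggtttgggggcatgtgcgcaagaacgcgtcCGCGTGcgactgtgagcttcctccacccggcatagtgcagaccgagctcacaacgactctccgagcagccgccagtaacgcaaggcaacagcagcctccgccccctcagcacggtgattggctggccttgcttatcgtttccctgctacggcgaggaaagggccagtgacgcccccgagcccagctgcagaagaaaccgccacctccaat
Gnai1, chr5:18360364-18360663, minus strand: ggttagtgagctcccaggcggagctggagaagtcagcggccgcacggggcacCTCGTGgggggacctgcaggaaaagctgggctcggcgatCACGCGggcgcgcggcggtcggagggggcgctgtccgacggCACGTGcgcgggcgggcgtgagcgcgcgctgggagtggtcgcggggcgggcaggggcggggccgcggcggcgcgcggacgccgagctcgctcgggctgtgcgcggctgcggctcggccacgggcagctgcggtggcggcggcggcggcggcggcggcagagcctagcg
Syde2, chr3:145987620-145987919, plus strand: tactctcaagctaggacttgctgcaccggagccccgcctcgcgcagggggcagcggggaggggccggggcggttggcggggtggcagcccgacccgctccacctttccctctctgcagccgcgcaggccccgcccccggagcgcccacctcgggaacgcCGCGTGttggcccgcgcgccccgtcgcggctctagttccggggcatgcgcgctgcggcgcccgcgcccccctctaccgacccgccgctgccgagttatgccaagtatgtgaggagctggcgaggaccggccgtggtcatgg
Igfbp3, chr11:7213874-7214173, minus strand: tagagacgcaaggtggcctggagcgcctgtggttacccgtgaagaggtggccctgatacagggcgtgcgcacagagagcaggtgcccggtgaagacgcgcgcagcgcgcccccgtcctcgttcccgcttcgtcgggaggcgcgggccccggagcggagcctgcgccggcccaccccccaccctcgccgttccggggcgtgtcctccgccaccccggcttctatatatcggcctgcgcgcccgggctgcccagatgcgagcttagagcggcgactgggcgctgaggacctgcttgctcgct
Ssbp2, chr13:91460847-91461146, plus strand: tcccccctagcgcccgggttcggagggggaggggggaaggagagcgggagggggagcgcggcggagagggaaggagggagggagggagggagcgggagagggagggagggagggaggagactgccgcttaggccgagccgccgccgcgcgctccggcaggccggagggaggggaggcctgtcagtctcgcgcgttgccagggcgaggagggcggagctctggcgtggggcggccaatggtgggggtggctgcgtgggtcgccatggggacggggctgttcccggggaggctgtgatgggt

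The Raph1 window holds the class C letters in 2 adjoining copies on the reverse strand, St8sia4 and Syde2 hold 1 each on that strand, and Gnai1 holds 1 on the forward strand beside an E-box and an N-box. A match is a run of letters, and no binding was measured here.

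Transcription factors and their partners were members as well. Sp8, a zinc finger factor of limb and tail bud, read 136 and 66.8 without OHT and 34.9 and 22.8 with it. Nkx1-2, a homeobox factor of axial progenitors, went from 547 and 401 to 189.8 and 205, and Tcf15, a basic helix-loop-helix factor of the paraxial mesoderm, from 745 and 544 to 326 and 286. These 3 were the members in a list of 14 measured presomitic and axial progenitor factors. Prdm1, the repressor Blimp1, fell 2.53-fold, Zfpm2, the GATA cofactor Fog2, 2.37-fold, and Dbp, a PAR bZIP factor of the clock output, 2.46-fold. Tob1, an antiproliferative protein, read 500.2 and 333 and then 163 and 179, and Sertad4, of the SERTA family, fell 2.23-fold. Zfp677, a zinc finger protein, read 555 and 480.0 without OHT and 179 in both arrays with it.

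Some members had far higher signals in uninduced NERT cells than in control mesodermal cells. Iigp1, an interferon-inducible GTPase, read 461 and 380.0 without OHT and 112 and 189 with it at 1419042_at, while control mesodermal cells gave 41.1 and 43.4. The probe set shared by Sprr2a1 and Sprr2a2, which encode proteins of the cornified envelope, read 2040.1 and 1699, then 710.0 and 937, and 166 and 155 in control cells. The fall thus left both well above the control line. Over the members, 71 of 89 were higher in uninduced NERT than in uninduced control mesodermal cells, against 56.6% of all 25847 probe sets, and 20 of them by 1 or more on the log2(signal + 25) scale, against 1.63%. With OHT 72 of 89 were below control mesodermal cells with OHT, against 51.2% of all. The rule favours members that are high in the uninduced arrays and low in the others, so these counts follow in part from the choice. Pik3ip1, an inhibitor of PI3 kinase, went from 138 and 109.9 to 39.1 and 41.5. Sbk1, an SH3-binding kinase, fell 2.82-fold and 2.25-fold at its member probe sets, and Mettl7a2, a methyltransferase-like protein, 2.80-fold; the probe set shared by Mettl7a2 and Mettl7a1 fell 2.51-fold. The remaining named members, Igdcc4, Pxdc1, A930024E05Rik, Misp3, Zfp467, Marchf9, Lzts1, Sox12, Rundc3b, Shroom4, Cecr2, Slc6a15, Ccdc85a, Plcxd1, Nampt, Scml2, Antxr2, Dhrs3, Pm20d2 and Kcnh8, fell between 2.03-fold (Plcxd1) and 3.49-fold (Kcnh8). The 5 unnamed probe sets fell between 2.36-fold and 6.31-fold.

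Other probe sets of the same genes were read where a group mean reached 50. Of 48 such probe sets of 34 member genes, 46 were lower with OHT, with a median of -0.57 on the log2(signal + 25) scale, and 25 were at -0.5 or below, against 59.5% and 3.35% of all probe sets tested. These values come from the same 4 arrays that chose the genes and are a description. Acsl3, an activator of long-chain fatty acids, was far brighter at its other probe sets, where the means fell from 1590 to 908 and from 2114 to 1261. The exceptions were a probe set each of Thra (93.3 and 110.4) and Zfpm2 (45.0 and 50.6). Some genes fell by a smaller fold at other probe sets than at the member probe set. Means went from 197 to 147 for Thra, from 388 to 268 and from 124 to 112 for Lpar1, and from 131 to 93.0 for Rgmb. Others were nearly level, among them a probe set each of Stc2 (180 without OHT and 175 with it), Slain1 (88.8 and 83.6), Mettl7a1 (147 and 137) and Raph1 (85.6 and 77.6). For 38 member genes no other probe set reached that level.

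CHX by itself changed the level of many members, in both directions. Without OHT, 13 of the 89 were higher with CHX by 1 or more on the log2(signal + 25) scale and 11 were lower by 1 or more, against 7.71% and 2.92% of all 25847 probe sets. These values share the uninduced arrays that chose the members and are given without a test. Kctd15, a repressor of neural crest formation, read 375 and 472 without CHX and 1395 and 1343 with it. Mfap3l, a membrane glycoprotein, went from 201 and 157 to 612 and 575, and Flrt3 from 111 and 178 to 425 and 534. Fst, by contrast, dropped from 2337 and 1592 to 363 and 316 at 1434458_at, and Igfbp3 from 3106 and 1927 to 518 and 700.1 at 1423062_at. The Sprr2a1 and Sprr2a2 probe set went from 2040.1 and 1699 to 50.4 and 74.2, below its level in control mesodermal cells. The members thus did not move together with CHX.

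**Figure D2:**
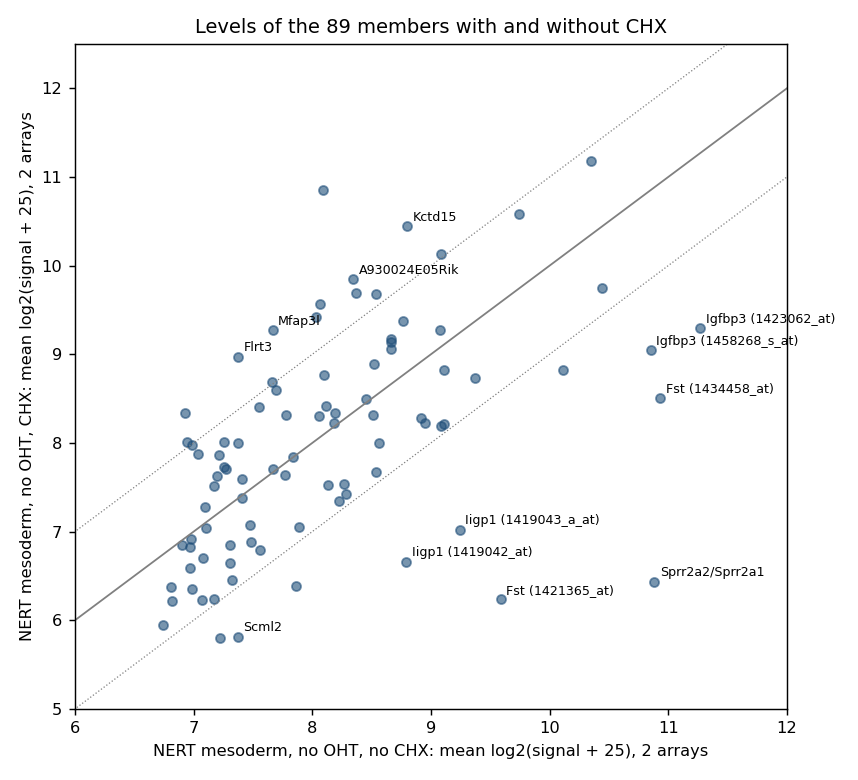
Mean log2(signal + 25) of the 2 uninduced NERT mesoderm arrays without CHX (x axis) and with CHX (y axis) for the 89 members, with the line of equal level and dotted lines 1 unit above and below it; named members at least 1.5 units off the line carry their names. The points spread widely to both sides, with Sprr2a2/Sprr2a1 at a difference of -4.45 and Kctd15 at 1.64.

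With CHX present, most members were lower with OHT, and no single one passed the test. The 4 arrays with CHX were not used to choose the members. The error of the test is pooled with that of the 4 arrays that were. The responses with and without CHX were not set against each other, since the choice of members fixed the size of the latter. Of the 89, 72 were lower with OHT and 17 higher, with a median of -0.27 on the log2(signal + 25) scale against -0.001 over all 23971 probe sets tested, of which 50.2% were below 0. Both arrays with OHT lay below both without it for 50 members, against 13.7% of all probe sets, and above for 2 members, against 16.4%. In limma with Benjamini-Hochberg adjustment over all probe sets, 0 members were called lower (0.0501% of all) and 0 higher (0.567% of all), while 23 members were lower and 1 higher at an unadjusted p under 0.05, against 2.16% and 3.73% of all probe sets. The typical standard error of a member was 0.21, so a change of the size of the median response could not be called in a single probe set.

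The lowest adjusted p with CHX belonged to Ssbp2, a partner of LIM-domain transcription complexes. It read 653 and 670.0 without OHT and 439 and 403 with it, a change of -0.62 (SE 0.17, limma adjusted p = 0.274), while the same cells without CHX gave 232 and 242 and then 102 and 126. Mfap3l followed with 612 and 575 against 408 and 308 (-0.70, SE 0.20, limma adjusted p = 0.296). Tob1 read 604 and 671 without OHT and 356 and 417 with it (-0.69, SE 0.21, limma adjusted p = 0.385). In all 3 the groups did not overlap, and the uninduced level was higher with CHX than without it. Trim67, a ubiquitin ligase, had the largest difference of any member, -0.73, at 128 and 148 against 73.0 and 73.4. The members whose groups lay apart with CHX included Sp8 (342 and 259.6 against 191 and 155), Lpar4 (385 and 340.2 against 200.0 and 269.5), Gcnt1 (281 and 269.5 against 146 and 196) and Cyp7b1 (330.1 and 303 against 229.7 and 239.8 at 1421074_at).

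Other members had little difference with OHT in the arrays with CHX. Syde2 read 897 and 719 without OHT and 825 and 804 with it, a change of 0.02 (SE 0.18). Mtss1 at 1434036_at gave 2258 and 2331 against 2022 and 2242, and Tcf15 gave 455 and 349 against 301 and 509. In Syde2 and Tcf15 the arrays overlapped between the groups. Gnai1 at 1454959_s_at (943 and 732 against 1147 and 753) and Dbp (359 and 247 against 369 and 330.5) had the higher mean with OHT. Endoderm markers, which fell without CHX, summed to 438 to 531 without OHT and to 473 to 621 with OHT in these arrays. Neuroectoderm markers summed to 823 to 851 and to 881 to 1486, where the mean of Nes went from 340 to 670. Mesoderm and primitive streak markers summed to 1337 to 1534 without OHT and to 1241 to 1562 with it. Both ranges were far below the sums without CHX. Pluripotency markers summed to 10383 to 12097 and to 13224 to 14221, and blood and endothelium markers to 236 to 266 and to 261 to 267. The part of these markers in the members' values was not tested.

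**Figure D3:**
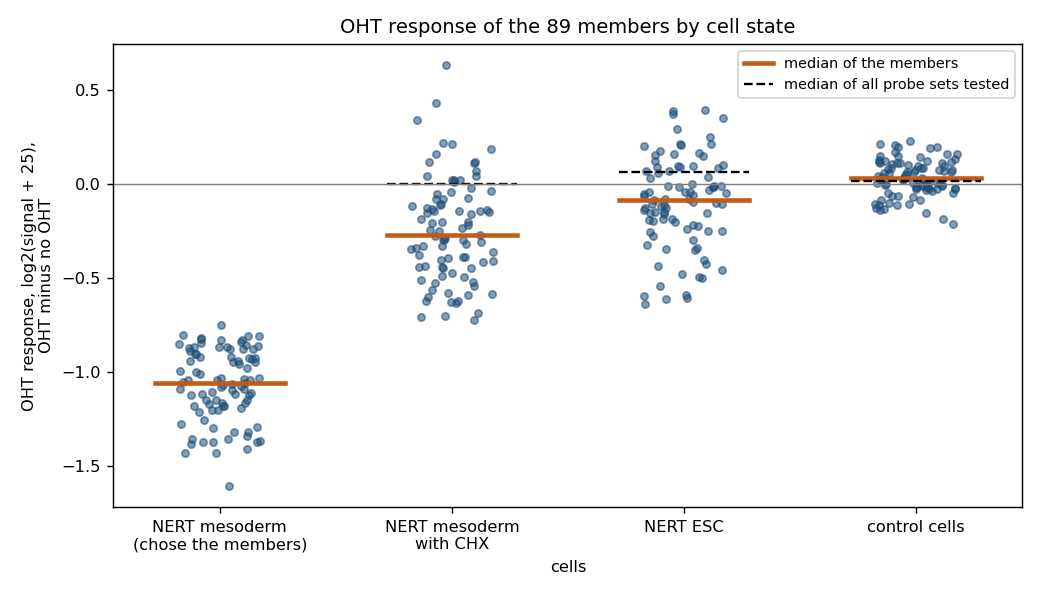
OHT response of each of the 89 members, as the difference in log2(signal + 25) between arrays with and without OHT, in NERT mesodermal cells, in the same cells with CHX, in NERT ESC over both media and in control cells; thick lines are member medians and dashed lines the medians of all probe sets tested. The member medians are -1.06 (fixed by the choice of members), -0.27, -0.09 and 0.03.

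In NERT ESC, where OHT activates the same Notch1 construct, the members moved little. Over both media 62 of 89 were lower with OHT and 27 higher, with a median of -0.09 against 0.06 over all 25847 probe sets tested, of which 32.7% were below 0. By limma 0 members were called lower (0.031% of all) and 0 higher (0.507% of all), and at an unadjusted p under 0.05 there were 13 lower and 2 higher, against 1.41% and 4.79% of all. In 43 members the value fell in both media, in 16 it rose in both, and in 30 the media went opposite ways, with 11 lower in ESCe alone and 19 in ESCm alone. Both arrays with OHT lay below both without it in 28 members (11.6% of all) and above in 12 (34% of all). In neither medium did a member differ by 1 or more on the log2(signal + 25) scale, and few probe sets did at all: 0.491% were higher and 0.031% lower by that much in ESCe, and 0.472% and 0.0387% in ESCm.

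The 4 genes with the lowest adjusted p in ESC were Mtss1, Raph1, Slc40a1 and Syde2. Mtss1 at 1434036_at read 1619.6 and 1345 without OHT, in ESCe and ESCm, and 1018 and 928 with it (-0.59, SE 0.12, limma adjusted p = 0.0631), and it passed the limma test after quantile normalization (adjusted p = 0.0252). Raph1 at 1434302_at went from 319.9 and 301 to 196 and 185 (-0.64, SE 0.16, limma adjusted p = 0.168). Slc40a1 gave 265 and 219 against 165 and 134 (-0.61, SE 0.16, limma adjusted p = 0.192). Syde2 (306 and 238 against 214 and 157) had a change of -0.50 (SE 0.14, limma adjusted p = 0.23). In each of these 4 genes the arrays with OHT were the lower in both media. At the same probe sets, the OHT response in mesodermal cells with CHX was between -0.22 (Slc40a1) and 0.02 (Syde2). The difference between the response in mesodermal cells with CHX and that in ESC was called in 0 members by limma (0.0658% of all), with 11 lower and 2 higher at an unadjusted p under 0.05, against 3.51% and 1.81% of all probe sets.

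Some members had very low signals in ESC. Sp8 gave 4.54 and 12.9 in ESC without OHT and 9.46 and 11.7 with it, and Cysltr1 5.18 and 9.34 against 3.13 and 6.62. Tcf15 was the reverse, with 2161 and 2138 in ESC without OHT, more than in mesodermal cells, and 1899 and 1935 with it.

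In control cells OHT had no called effect: 0 of the 25847 probe sets (0%) passed, and 0 members did, with 308 probe sets but 0 members at an unadjusted p under 0.05. Of the members, 35 were lower and 54 higher with OHT, the median was 0.03 against 0.01 over all, and the values lay between -0.22 and 0.23. Raph1 at 1434302_at, for example, read 299.6 and 305 in control ESCm and 512 and 525 in control mesodermal cells without and with OHT. The response in NERT ESC minus that in control cells was called in 0 members (0.143% of all), with 5 lower and 0 higher at an unadjusted p under 0.05, against 1.26% and 2.26% of all probe sets.

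In the control line most of these genes were higher in mesodermal cells than in ESCm, on arrays not used to choose them. The populations also differ in medium, serum and days of culture, which cannot be told apart from differentiation here. By limma 60 of the 89 members were higher in control mesodermal cells than in control ESCm, against 12.8% of all 25847 probe sets, and 3 were lower, against 8.16%. The median difference was 0.86 on the log2(signal + 25) scale, against 0.03 over all. A member must be expressed in NERT mesodermal cells, which tilts this comparison: among the 17138 probe sets at least as high there as the lowest member, 17% were called higher and 7.01% lower, with a median of 0.08. The comparison holds 2 arrays against 2, without and with OHT, and each member's value is the mean over that pair.

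Igfbp3 rose most, from 115 and 134 in control ESCm to 1868 and 1725 in control mesodermal cells at 1423062_at (3.61, SE 0.22, limma adjusted p = 8.77e-07). Fst went from 42.6 and 51.3 to 729 and 543 at 1434458_at (3.19, SE 0.26, limma adjusted p = 5.97e-06). Trim67 (2.27), the Sprr2a1 and Sprr2a2 probe set (2.14), Pkdcc (2.13), Stc2 (2.02) and Ptger4 (1.75) followed, each with the 2 mesoderm arrays above the 2 ESCm arrays. Sertad4 (1.66), Chst15 at 1452092_at (1.64) and Rgmb (1.59) came next.

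The 3 called lower were Tcf15, Pdgfra and Kctd15. Tcf15 read 2048 and 1903 in control ESCm and 615 and 563 in control mesodermal cells (-1.70, SE 0.22, limma adjusted p = 0.000164). Pdgfra went from 156 and 138 to 29.5 and 40.6 (-1.52, SE 0.27, limma adjusted p = 0.00178) and Kctd15 from 831 and 847 to 495 and 523 (-0.70, SE 0.17, limma adjusted p = 0.0106). The sum of the 10 mesoderm markers, of which Pdgfra is one, went the other way, with 805 and 718 in control ESCm and 1601 and 1642 in control mesodermal cells, without and with OHT. In uninduced NERT cells Pdgfra read 59.6 in ESCe, 24.6 in ESCm and 90.5 and 155 in mesodermal cells. Tcf15 and Kctd15 were lower in uninduced NERT mesodermal cells than in uninduced NERT ESC. The 7 endoderm markers summed to 805 and 816 in the control ESCm arrays, against 264 in uninduced NERT ESCm. Their sums in control mesoderm were 290 and 280. The part of these endoderm sums in the fall of Pdgfra was not tested. Raph1, with 0.73 at 1434302_at between the control populations, was among the many with a moderate rise. Mtss1 (-0.16 at 1434036_at) and Sbk1 (-0.31 at 1423978_at) were not called.

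**Figure D4:**
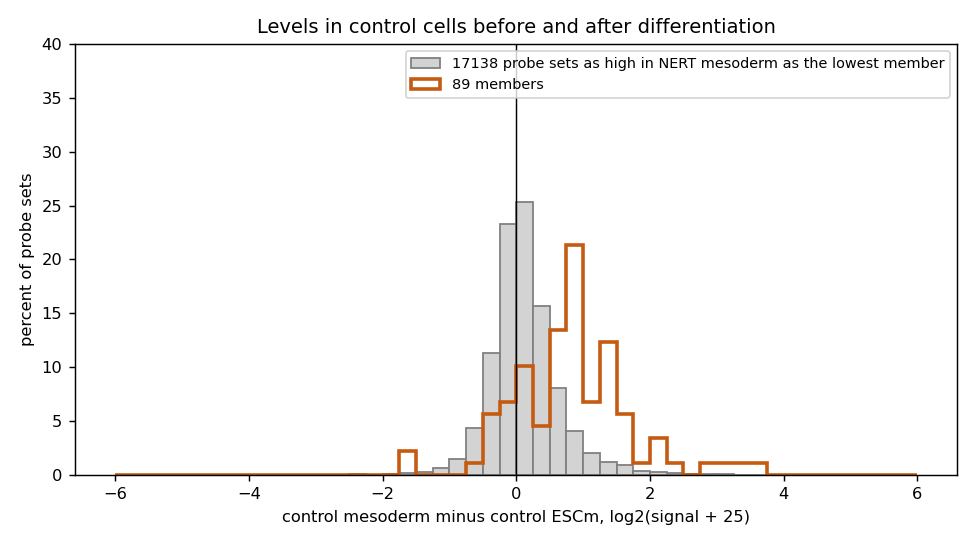
Difference between control mesodermal cells and control ESCm, in log2(signal + 25), as the percent of probe sets per bin of 0.25, for the 89 members (outline) and for the 17138 probe sets at least as high in uninduced NERT mesodermal cells as the lowest member (filled). The members' median is 0.86 and that of the filled bars 0.08, and Tcf15 and Pdgfra form the small peak on the left.

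Relatives of the members were followed in 14 lists of 166 genes, 154 of them measured and 27 of these members. Of the 127 others, 94 were high enough to test in NERT mesodermal cells without CHX, where limma called 1 lower and 2 higher (0.28% and 0.613% of all probe sets), with a median of -0.04. The lower one was Ptger3, another prostaglandin E2 receptor, whose mean went from 51.6 to 15.4 (-0.92, SE 0.18, limma adjusted p = 0.0433). The higher ones were Pdgfb, a PDGF ligand, from 264 to 1278 (2.17), and Cdx1, a caudal homeobox factor, from 81.2 to 199 (1.07). With CHX the BMP coreceptor Rgma was the single one called, higher by 1.43 (limma adjusted p = 0.0227), and in ESC it was Ch25h, which makes 25-hydroxycholesterol, higher by 0.83 (limma adjusted p = 0.018). In the other direction 0 of the list genes outside the members were called with CHX or in ESC. Of all probe sets, 0.567% were called higher and 0.0501% lower with CHX, and 0.507% and 0.031% in ESC. Between control mesodermal cells and control ESCm, 22 of 101 tested were higher and 5 lower, against 12.8% and 8.16% of all probe sets.

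The pattern of Raph1 over the 12 arrays that the rule did not use was set beside 12762 other genes. The closest were Myb (Pearson r = 0.959), Slc27a2 (0.941), Esrp1 (0.940), Pwwp2b (0.940) and Pou3f1 (0.929), where the last is among the symbols the rule leaves out and none of the others is a member. These arrays share cell lines, media and treatments, so the values are a description over 12 points.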

How the data were processed

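RNA of 16 samples was hybridised to Affymetrix 430 2.0 mouse arrays. The authors deposited intensity values, which per their methods are model-based expression values from dChip, scaled by the invariant set method, with induced control mesoderm as the baseline array. They were used as deposited, detection calls were not used here, and no column was left unused (0). Probe sets were named through the platform annotation and RefSeq (GRCm38.p6): 34945 of 45037 name 1 symbol, 932 several, and 9160 are unnamed here. Array medians lay between 42.0 and 46.9. The number of arrays, with 2 per NERT mesoderm group and 1 per other condition, limits the precision.

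Values were tested as log2(signal + 25), which understates the change of low signals, over probe sets with a group mean of at least 50. Linear models were fitted in limma 3.58.1 (R 4.3.3; lmFit, then eBayes with an intensity trend), and two-sided p-values were adjusted after Benjamini-Hochberg across every probe set tested, with 0.05 as the threshold. The response with CHX came from the 8 arrays of NERT mesodermal cells. All 16 gave the response in NERT ESC (mean over both media), that in control cells (mean over both populations), the difference between control populations and the differences of responses. Each fit pools its error over all its arrays, so every p-value draws in part on the 4 arrays that chose the members. The code was tested on simulated data. Other values and the plots were computed in Python 3.11.15 (numpy 2.4.6, pandas 2.3.3, matplotlib 3.10.9). Alternatives were other thresholds of the rule, pseudocounts, filters, normalization, fits, the replicate number as a block and each NERT mesoderm array left out.

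The members, gene lists, motifs and tests were chosen with earlier results of these data known. Named genes are members with 1 symbol: the 25 largest falls, those past a test (at most 10 per direction), those next to a threshold, those with more than 1 member probe set and those on a gene list. Further members, the marker genes and the promoters printed were chosen after their values were seen. List genes were read at their brightest probe set.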

Additional observations from a re-analysis of the deposited data

Results flagged for a closer look

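A few members had every array with OHT above every array without it in 1 setting, while the choice of members fixed the opposite order in NERT mesodermal cells without CHX. The difference between the settings was not tested. With CHX these were Nkx1-2, higher by 0.63 on the log2(signal + 25) scale, and Pgr, higher by 0.34. In NERT ESC, over both media, they were Lpar1 (0.39), Igfbp3 (0.38 and 0.21 at its member probe sets), Slain1 (0.37), Rgmb (0.35), Mettl7a2 (0.29), Nkx1-2 (0.25), Ptger4 (0.21), Scml2 (0.21), Iigp1 (0.17 at 1419043_a_at), Kif21a (0.16 at 1455029_at) and Fst (0.15 at 1434458_at). At these probe sets Rgmb, Nkx1-2, Scml2, Iigp1 and Kif21a read under 50 in every NERT ESC array, where small differences carry little weight. Nkx1-2, for example, read 14.6 and 19.3 without OHT and 25.2 and 24.2 with it. None of the responses to OHT listed here passed the limma test, and such an order was found in 16.4% of all probe sets with CHX and in 34% in ESC.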

How the results depend on the processing

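The number of members depends strongly on the rule. It was 89 as described, 471 with 1.5-fold, 6 with 3-fold, 147 with a difference over 25, 52 with a difference over 100, 90 without the order of arrays and 76 after quantile normalization. Leaving out an array of NERT mesodermal cells without CHX gave 86 to 248, with 185 without replicate 2 of the uninduced cells and 248 without replicate 2 of the induced cells. Of the original 89, 54 to 83 remained.

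The counts of 0 members called lower held under most alternatives. With CHX, Ssbp2 was called (1 member) when all 16 arrays entered the fit. In ESC, 2 members were called after quantile normalization (Mtss1 and Raph1) and 2 (Slc40a1 and Mtss1) without either induced array with CHX, so the range over left-out arrays was 0 to 2. For the response with CHX minus that in ESC, 2 members (Lpar1 and Rgmb) were called lower without replicate 2 of the induced cells with CHX, again 0 to 2. Between control populations, 55 to 61 members were called higher and 3 or 4 lower, and the members' median moved from 0.86 to 1.06 with a pseudocount of 5 and to 0.67 with 50. The causes were not tested. No other count moved by more than 1.5 times.

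Replicate numbers pair nothing for certain: the correlation of the differences between replicates 1 and 2 among the 4 NERT mesoderm groups ran from 0.0074 to 0.513. The highest was between the uninduced and induced cells without CHX, the groups that chose the members, and the other pairs of groups gave 0.209 or less. With the number as a replicate block 1 member (Mtss1) was called in ESC, and 42 probe sets met the rule within both same-numbered pairs. The block moved no other count of calls by more than 1.5 times. No depth applies to arrays, and low signals limit folds.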
